A study of Mus musculus with 13 samples.

Results

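Rhox1, Rhox5, Rhox6 and Rhox9 are 4 of the 30 Rhox rows, and of the 25965 rows in all, in a table of gene expression from differentiating female mouse embryonic stem cells (mESCs). They were taken by symbol, and the 4 symbols had been selected on measured values of these same libraries, namely their same-day differences between knockdown and control and their course over days. Those values are given as a description with no test. The question behind the experiment was what happens to gene expression when the chromatin remodeller BAF is depleted of Smarcc1, which belongs to its core, while 1 X chromosome is being silenced. All 13 libraries came from female F1 mESC lines (strain FVB/CAST F1, the dam FVB/NJ and the sire CAST/EiJ), expanded in 2i medium. Differentiation was started by weaning the cells from 2i into DME HiHi medium. Day0 was 1 library without a hairpin. Nons carried a nonsilencing hairpin, and Smarcc1.6 and Smarcc1.7 each carried a different hairpin against Smarcc1, with 1 library for each group on each of days 4, 5, 6 and 7. The virus was added on day 2 and puromycin on day 3, so the 3 hairpin groups share transduction and selection, which Day0 lacks. Each library is RNA from a bulk population of cells, selected in the 3 hairpin groups only. Both alleles are counted together, and fewer cells of a type cannot be told apart from less RNA per cell. With 1 library per group and day, the days stand in for replicates, so the p-values measure only the spread between these samples. The 2 hairpins of a day are compared with the same Nons library. The 8 same-day comparisons thus rest on 4 Nons libraries and are not independent, and the knockdown fit uses these same libraries.

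Rhox genes form a cluster of homeobox genes on the mouse X chromosome that is known for its activity in the testis, the ovary, the placenta and the early embryo. Each encodes a protein with a homeodomain, a fold of helices whose last helix reads DNA. Rhox5, also called Pem, is the founding gene of the cluster and is active in embryonic stem cells, while Rhox6 and Rhox9, also called Psx1 and Psx2, are a closely related pair first described in placenta. In somatic lineages the cluster is known to be shut off with methylation of its DNA.

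The homeoboxes are shown because they separate the genes into a near-identical pair, Rhox6 and Rhox9, and sequences that diverge from it, which bears on how far reads can be told apart. Each is 180 bases of coding sequence from the GENCODE M21 transcripts (build mm10), 5′ to 3′, and the capitals mark the 18 bases of the last helix that begin with the tryptophan codon found in all of them.
Rhox1: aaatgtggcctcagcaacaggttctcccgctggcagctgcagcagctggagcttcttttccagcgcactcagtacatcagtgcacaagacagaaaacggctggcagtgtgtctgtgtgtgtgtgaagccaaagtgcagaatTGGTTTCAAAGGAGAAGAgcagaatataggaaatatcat
Rhox5: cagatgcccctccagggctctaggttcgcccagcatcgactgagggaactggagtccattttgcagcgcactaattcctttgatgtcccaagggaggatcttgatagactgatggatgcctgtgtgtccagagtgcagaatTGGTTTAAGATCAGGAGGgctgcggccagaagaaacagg
Rhox6: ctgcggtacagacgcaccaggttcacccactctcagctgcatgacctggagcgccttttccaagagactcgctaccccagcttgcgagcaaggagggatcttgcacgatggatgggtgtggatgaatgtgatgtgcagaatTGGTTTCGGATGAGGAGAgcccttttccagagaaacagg
Rhox9: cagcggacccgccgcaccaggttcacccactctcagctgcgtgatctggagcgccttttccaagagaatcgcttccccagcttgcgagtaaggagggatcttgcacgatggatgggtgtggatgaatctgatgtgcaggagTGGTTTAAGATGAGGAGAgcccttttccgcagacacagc
Rhox13: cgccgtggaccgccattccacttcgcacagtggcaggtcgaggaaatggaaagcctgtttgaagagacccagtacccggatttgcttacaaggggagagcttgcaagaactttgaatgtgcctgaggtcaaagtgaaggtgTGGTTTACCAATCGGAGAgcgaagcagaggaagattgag
Rhox13 is the only other Rhox gene expressed highly enough to be tested and is shown for comparison. In each of these genes the homeobox was split over 3 exons. Rhox6 and Rhox9 shared 161 of 180 bases (89.4%), whereas in global alignments the other pairs among the 4 genes shared between 56.7% (Rhox1 and Rhox5) and 62.2% (Rhox5 and Rhox9). Of the 75-base stretches in Rhox6 transcripts, 11.6% also occurred in a Rhox9 transcript, and 4.31% of those in Rhox9 occurred in Rhox6, so a small share of the reads of this pair could be assigned to either gene. Rhox1, Rhox5 and Rhox13 shared no 75-base stretch with a transcript of another gene.

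In order along the X chromosome (mm10), the counted rows are Rhox1 at chrX:37213804-37222258 on the minus strand, Rhox5 from 37804851, Rhox6 from 37826910 and Rhox9 from 37899097, inside a cluster of 916 kb that ends with Rhox13. Levels are log2 CPM as deposited, in which the reads of a gene are scaled to the mapped reads of its library, and a gene with 0 reads was deposited as 0.9 reads. The shallowest library was Smarcc1.7 of day 5 with 13993440 mapped reads, and the deepest was Smarcc1.6 of day 4 with 63548092. In Day0 and the day 6 libraries, between 85.3% and 86.5% of mapped reads lay in genes, against 91.6% to 92.6% in the other 9. Single genes dipped there too, though how many was not counted. Tdg was 2.29 in Day0 and 3.35 in Nons on day 6, against 6.36, 6.58 and 6.08 on days 4, 5 and 7. Cbx3 was 3.39 and 2.95, against 7.135, 7.11 and 6.53. Changes into or out of Day0 or day 6 cannot be told apart from a difference in how these libraries were made or processed. The median level of autosomal genes was higher on each later day in all 3 groups, going from 4.41 on day 4 to 4.67 on day 7 in Nons, and this shift is part of every change over days given below. Smarcc1 itself was lower in 8 of 8 same-day comparisons, at 43.9% of Nons with Smarcc1.6 and 52.5% with Smarcc1.7 (mean log2 difference -1.06, two-sided exact permutation p = 0.0123 over 81 arrangements, the smallest they can give). The depletion was least on day 7, with differences of -0.61 for Smarcc1.6 and -0.38 for Smarcc1.7, against -1.68 and -1.14 on day 4. The ESC marker Pou5f1 stayed between 9.55 and 10.6 in all 13 libraries, and the other ESC markers differed in their course. Of 8 ESC identity markers 4 were called falling with day and 0 rising (limma), beside 25.6% and 34.9% of all tested genes. Sox2 went from 7.78 on day 4 to 3.69 on day 7 in Nons. Nanog stood at 10.47 in Day0 and went from 6.43 on day 4 to 7.94 on day 7 in Nons. In Smarcc1.6 Nanog went from 8.79 to 7.97, and in Smarcc1.7 from 8.18 to 8.07.

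Rhox1 was the member whose level fell furthest in the control and the member with the widest gap between control and knockdown. Rhox1 stood at 4.51 in Day0. In Nons it was 4.10 on day 4, 2.18 on day 5, -0.33 on day 6 and -3.31 on day 7, the last being 3 reads. In Smarcc1.6 it was 4.11, 3.38, 2.47 and 0.71 on the same days, and in Smarcc1.7 it was 4.23, 3.33, 2.21 and 0.01. The 3 groups lay together on day 4, and from day 5 on both knockdown libraries lay above the Nons library of the day. Between day 4 and day 7 the level fell 170-fold in Nons, 10.5-fold in Smarcc1.6 and 18.6-fold in Smarcc1.7. The same-day difference averaged 2.01 ± 1.76 with Smarcc1.6 and 1.78 ± 1.42 with Smarcc1.7 (log2, mean ± SD, n = 4 days), and it was above 0 in 8 of 8 comparisons. Those SDs hold a steady widening, with mean differences over both hairpins of 0.07, 1.18, 2.67 and 3.66 on days 4 to 7. On day 7 the ratio to Nons was 16.2 (95% interval 5.37 to 79.8) for Smarcc1.6, from 96 against 3 reads, and 9.93 (3.21 to 49.7) for Smarcc1.7, from 51 against 3. These are exact intervals that cover counting error only.

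Rhox5, the most highly expressed member in Day0, fell later. It stood at 9.03 in Day0 and in Nons at 9.12 on day 4, 8.64 on day 5, 6.80 on day 6 and 5.54 on day 7. In Smarcc1.6 the levels were 8.79, 8.99, 8.35 and 6.99, and in Smarcc1.7 they were 8.91, 8.88, 8.16 and 6.81. On day 4 both knockdown libraries lay below Nons, and on days 5 to 7 both lay above it. The gap opened between days 5 and 6, when Nons dropped by 1.84 while Smarcc1.6 dropped by 0.64 and Smarcc1.7 dropped by 0.72. From day 6 to day 7 the drop was alike in the 3 groups, between 1.27 and 1.36. The same-day difference averaged 0.76 ± 0.91 with Smarcc1.6 and 0.66 ± 0.78 with Smarcc1.7 (log2, n = 4 days). On day 6 the ratio to Nons was 2.93 (2.82 to 3.03) for Smarcc1.6 and 2.56 (2.47 to 2.66) for Smarcc1.7, from at least 3930 reads in each library.

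**Figure D1:**
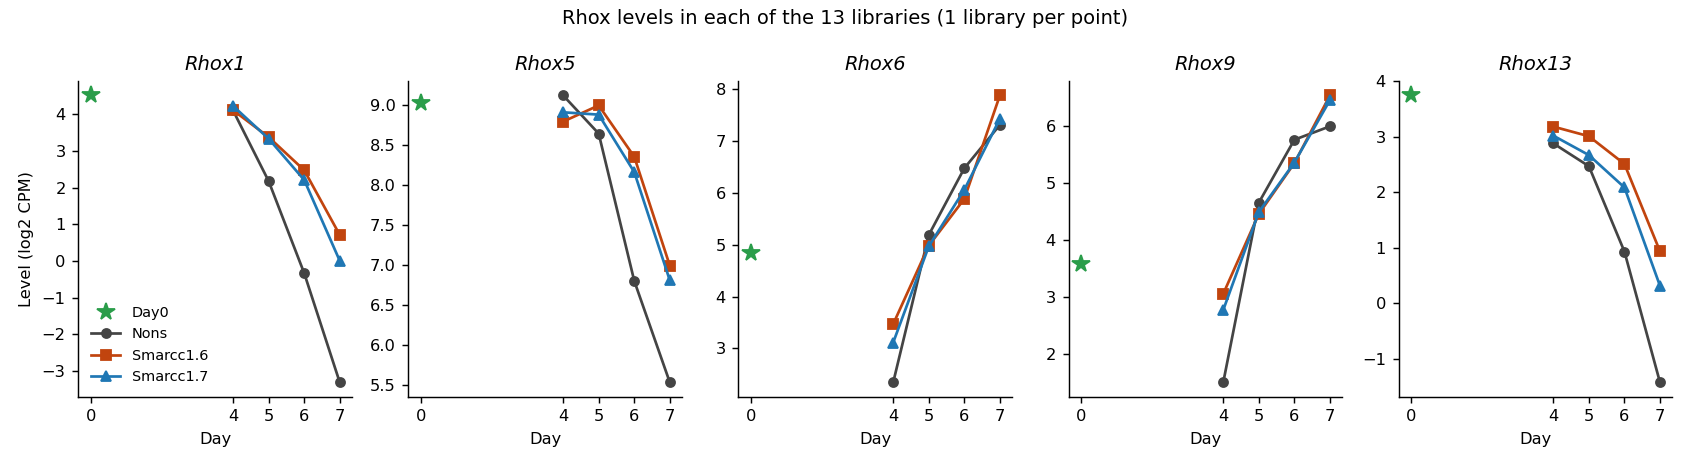
Level of Rhox1, Rhox5, Rhox6, Rhox9 and Rhox13 in log2 CPM (vertical axes, each with its own range) against day (horizontal axes). Each point is 1 library, with a star for Day0 and lines joining the days of Nons, Smarcc1.6 and Smarcc1.7. Rhox1, Rhox5 and Rhox13 fell from day 4 to day 7 and reached the lowest values in Nons, whereas Rhox6 and Rhox9 rose in all 3 groups.

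Rhox6 went the other way. It stood at 4.83 in Day0, and by day 4 it was lower in every group, with 2.34 in Nons, 3.47 with the hairpin Smarcc1.6 and 3.11 with Smarcc1.7. In Nons it then reached 5.19, 6.48 and 7.32 on days 5, 6 and 7. In Smarcc1.6 it reached 4.98, 5.89 and 7.89, and in Smarcc1.7 it reached 4.97, 6.06 and 7.43. From day 4 to day 7 this is a rise of 31.5-fold in Nons, of 21.4-fold in Smarcc1.6 and of 20.0-fold in Smarcc1.7. The side of Nons on which the knockdown libraries lay changed with day, and it was the same for both hairpins on each day. The differences were 1.13 and 0.77 on day 4 (Smarcc1.6 and Smarcc1.7 in this order), -0.21 and -0.22 on day 5, -0.59 and -0.42 on day 6, and 0.57 and 0.12 on day 7. Their mean over days was 0.22 ± 0.77 with Smarcc1.6 and 0.06 ± 0.52 with Smarcc1.7, less than the spread between days. Without day 4 the mean over both hairpins turned from 0.14 to -0.12.

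Rhox9 followed Rhox6 closely. It stood at 3.58 in Day0 and in Nons at 1.49, 4.65, 5.75 and 5.99 on days 4 to 7. In Smarcc1.6 it stood at 3.05, 4.45, 5.34 and 6.53, and in Smarcc1.7 at 2.77, 4.48, 5.35 and 6.45. Nons was the lowest of the 3 groups on days 4 and 7 and the highest on days 5 and 6. On day 4 the ratio to Nons was 2.94 (2.46 to 3.52) for Smarcc1.6 and 2.41 (1.99 to 2.93) for Smarcc1.7, and on day 6 it was 0.752 (0.703 to 0.806) and 0.758 (0.706 to 0.814). The mean differences, 0.37 ± 0.89 and 0.29 ± 0.75 (log2, n = 4 days), were again smaller than the spread between days, and without day 4 the mean over both hairpins was -0.03. Over the 13 libraries the log2 CPM of Rhox6 and Rhox9 correlated with r = 0.98, those of Rhox1 and Rhox5 with r = 0.97, and those of Rhox1 or Rhox5 with Rhox6 or Rhox9 with r between -0.81 and -0.77, which is a description of points that share the course of days.

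**Figure D2:**
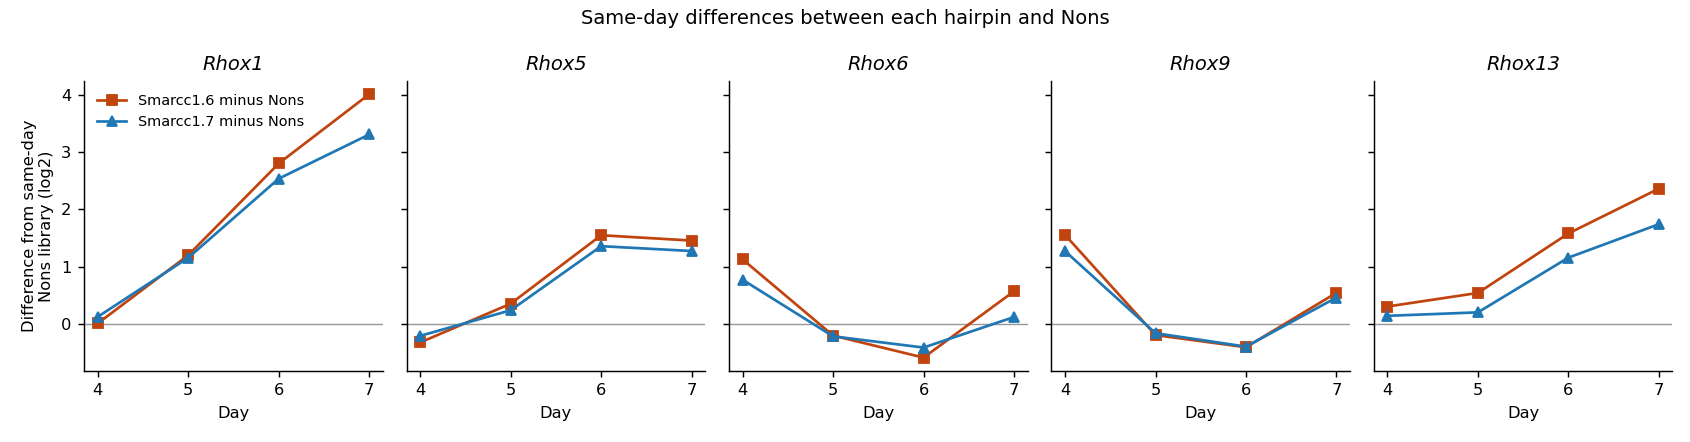
Difference in log2 CPM (vertical axis) between each knockdown library and the Nons library of the same day (horizontal axis), for Rhox1, Rhox5, Rhox6, Rhox9 and Rhox13. Each point is 1 comparison of 2 libraries. The Rhox1 points climb from near 0 on day 4 to 4.02 and 3.31 on day 7, whereas those of Rhox6 and Rhox9 lie above 0 on days 4 and 7 and below 0 on days 5 and 6.

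In the model fitted to all 13406 tested genes with day as a factor, the knockdown difference was 1.89 ± 0.43 for Rhox1 (log2 ± SE), 0.71 ± 0.22 for Rhox5, 0.14 ± 0.19 for Rhox6 and 0.33 ± 0.22 for Rhox9. Only Rhox1 was past the threshold, while 6.88% of all tested genes were called higher and 4.77% lower, and 1 member of 4 was higher in all 8 same-day comparisons, beside 7.89% of all tested genes. The change of the difference with day was 1.23 ± 0.14 per day for Rhox1, 0.61 ± 0.09 for Rhox5, -0.21 ± 0.15 for Rhox6 and -0.30 ± 0.17 for Rhox9. Rhox1 and Rhox5 were past the threshold there, beside 2.43% of tested genes with a rising difference and 1.32% with a falling difference. The change per day over all groups was -1.65 for Rhox1, -0.85 for Rhox5, 1.48 for Rhox6 and 1.26 for Rhox9, all past the threshold, as were 34.9% of tested genes that rose and 25.6% that fell. After centring on the autosomal median those genes were 3574 rising and 4731 falling, in place of 4679 and 3435. Since these contrasts are those in which the genes had stood out, nothing is read from the members' counts.

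The hairpins were compared with each other, which the choice of the genes had not used. The difference, Smarcc1.6 minus Smarcc1.7, was 0.22 for Rhox1 (log2, 95% interval -0.91 to 1.36), 0.09 for Rhox5 (-0.49 to 0.68), 0.16 for Rhox6 (-0.32 to 0.65) and 0.08 for Rhox9 (-0.50 to 0.66). None passed the threshold (limma, adjusted p between 0.989 and 0.994). In this comparison 0% of all tested genes were called by limma, with 530 genes at an unadjusted p under 0.05, and 0 by voom. The interval for Rhox1 still admits a difference of more than 2-fold between the hairpins.

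Between genes, levels were compared as CPM per kb of exon. Rhox5 led in Day0, at 691 CPM per kb, and in every library of days 4 to 6. It was 24.5 times Rhox6 in Day0 and 147 times in Nons on day 4, but 1.68 times in Nons on day 6, against 7.40 times in Smarcc1.6 and 5.74 times in Smarcc1.7 on that day. On day 7 Rhox6 led in all 3 groups, at 158 CPM per kb against 61.6 for Rhox5 in Nons, 234 against 169 in Smarcc1.6 and 171 against 149 in Smarcc1.7. The reads of the 4 genes passed from Rhox5 to the Rhox6 and Rhox9 pair, with Rhox5 taking 95.7% of them in Nons on day 4 and 17.2% on day 7. On day 7 the share of Rhox5 was 27.8% in Smarcc1.6 and 30.0% in Smarcc1.7. Neighbours in the order were close at some points, such as Rhox6 (28.2 CPM per kb) and Rhox1 (25.9) in Day0. Rhox9 was the lowest of the 4 genes in Day0 and on day 4 and Rhox1 the lowest on days 6 and 7. The level of Rhox9 per kb depends on which exons are counted, because the union of its annotated exons is 2488 bases and its 4-exon transcript 882. With the shorter length, Rhox6 was between 1.11 and 2.23 times Rhox9, and in Nons on day 7 Rhox9 (72.0 CPM per kb) lay above Rhox5.

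**Figure D3:**
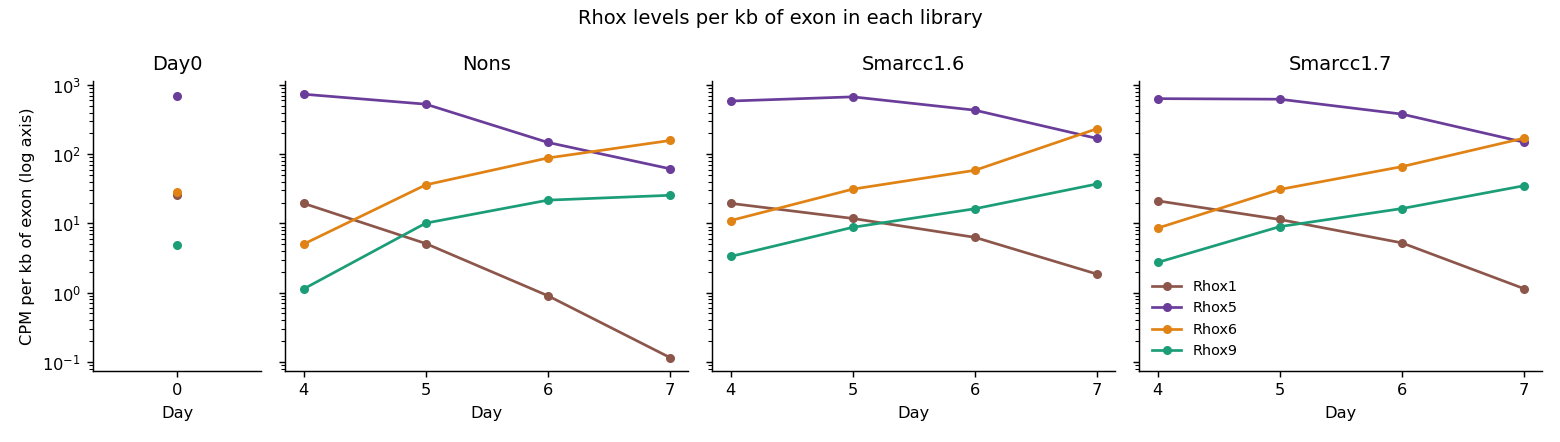
CPM per kb of exon (vertical log axis) of Rhox1, Rhox5, Rhox6 and Rhox9 against day (horizontal axis), in panels for Day0, Nons, Smarcc1.6 and Smarcc1.7. Each point is 1 library, with Rhox9 scaled by its 2488 bases of annotated exon. The lines for Rhox5 and Rhox6 cross between day 6 and day 7 in each hairpin group.

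Of the 26 Rhox rows outside the 4 genes, 7 had no reads in any library, 2 had at most 2 reads in a library and 17 had at least 3 in some library. Rhox13, a gene known from male germ cells, was the only one tested. It fell with time and was higher in knockdown. Though outside the 4 members, it was measured in the same libraries and its list was chosen with earlier results of these data known. Its log2 CPM correlated with that of Rhox1 with r = 0.98, so its tests are not independent support. Its level was 3.75 in Day0, and in Nons 2.88, 2.47, 0.93 and -1.43 on days 4 to 7. In Smarcc1.6 it was 3.18, 3.01, 2.51 and 0.93, and in Smarcc1.7 it was 3.02, 2.67, 2.09 and 0.31. Each knockdown library lay above the Nons library of its day, in 8 of 8 comparisons. The knockdown difference was 1.00 ± 0.27 (log2 ± SE; limma, adjusted p = 0.0341), its change with day 0.65 ± 0.15 per day (adjusted p = 0.0346) and its own change per day -1.01 (adjusted p = 0.000249). The call of the change with day was lost in 14 of 21 alternatives. The knockdown call is not firm either. It held under 10 of 24 alternatives, with differences from 0.65 to 1.26 and limma adjusted p from 0.0126 to 1.00, and it was lost on leaving out Nons on day 6 or 7, Smarcc1.6 on day 5 or 6, or Smarcc1.7 on day 6 or 7 (adjusted p up to 0.134).

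The stretches before the starts of Rhox1 and Rhox13 are shown because these genes fell and differed alike and lie at the opposite ends of the cluster. They are the 250 bases upstream of the RefSeq start (GRCm38.p6), 5′ to 3′ on the strand of the gene, for Rhox1 at chrX:37222259-37222508 on the minus strand and for Rhox13 at chrX:38120590-38120839 on the plus strand, with each CG in capitals.
Rhox1: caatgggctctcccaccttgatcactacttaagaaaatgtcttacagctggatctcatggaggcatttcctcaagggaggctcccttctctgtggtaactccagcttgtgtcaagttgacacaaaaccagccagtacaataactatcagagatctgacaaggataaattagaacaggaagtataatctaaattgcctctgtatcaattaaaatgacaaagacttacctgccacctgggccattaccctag
Rhox13: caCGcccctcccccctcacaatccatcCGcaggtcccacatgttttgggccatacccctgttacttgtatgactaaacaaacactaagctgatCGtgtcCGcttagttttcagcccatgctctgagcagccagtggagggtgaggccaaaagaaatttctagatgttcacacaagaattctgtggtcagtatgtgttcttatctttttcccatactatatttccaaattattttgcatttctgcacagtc
Rhox1 had 0 CG in this window and Rhox13 had 4, beside a median of 6 over 32851 RefSeq promoters, of which 62.2% had at least 4. The E-box CACGTG occurred in 6.02% of these promoters, the E2F motif GCGGGAA in 3.82% and the ETS motif CGGAAG in 13.6% (either strand), and none of the 3 occurred in either window. Among the members, Rhox1 and Rhox5 had an entry in that table, and the entry of Rhox5 starts far upstream of the counted row and is not shown. The window of Rhox13 also ends before its counted row, which starts at 38121219, so its counts are not for bases that adjoin that row.

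The Rhox2 copies are 8 near-identical genes, and 78.3% of the 75-base stretches of Rhox2a transcripts recurred in its 7 relatives, so only their sum is given. It was 9.69 CPM in Day0 and in Nons 5.94, 0.754, 0 and 0.0337 CPM on days 4 to 7, where 0 on day 6 allows up to 0.0852 CPM (3 reads). In Smarcc1.6 the sum was 9.08, 3.37, 0.832 and 0.273 CPM, and in Smarcc1.7 it was 7.83, 2.36, 0.314 and 0.295. The sum lay above Nons in all 8 comparisons, as Rhox1 and Rhox13 did. The 5 Rhox3 rows had at most 2 reads in a library. The 7 Rhox4 rows together had at most 9 reads in a Nons library and 41 in Smarcc1.6 on day 4. Rhox10 had 50, 6, 0 and 0 reads in Nons on days 4 to 7, 39, 16, 12 and 3 in Smarcc1.6, and 21, 5, 0 and 0 in Smarcc1.7. Scaled to depth, both hairpins lay below Nons on day 4, with ratios of 0.732 (0.469 to 1.13) and 0.575 (0.328 to 0.975), and above it on day 5, with 4.08 (1.52 to 12.7) and 2.76 (0.667 to 10.9). Rhox12 had its highest counts late, as Rhox6 and Rhox9 did, with 0 reads in Day0 and in Nons on days 4 and 5, then 15 and 21 reads on days 6 and 7, beside 3 and 66 in Smarcc1.6 and 5 and 21 in Smarcc1.7. Rhox7 had at most 9 reads in a library.

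**Figure D4:**
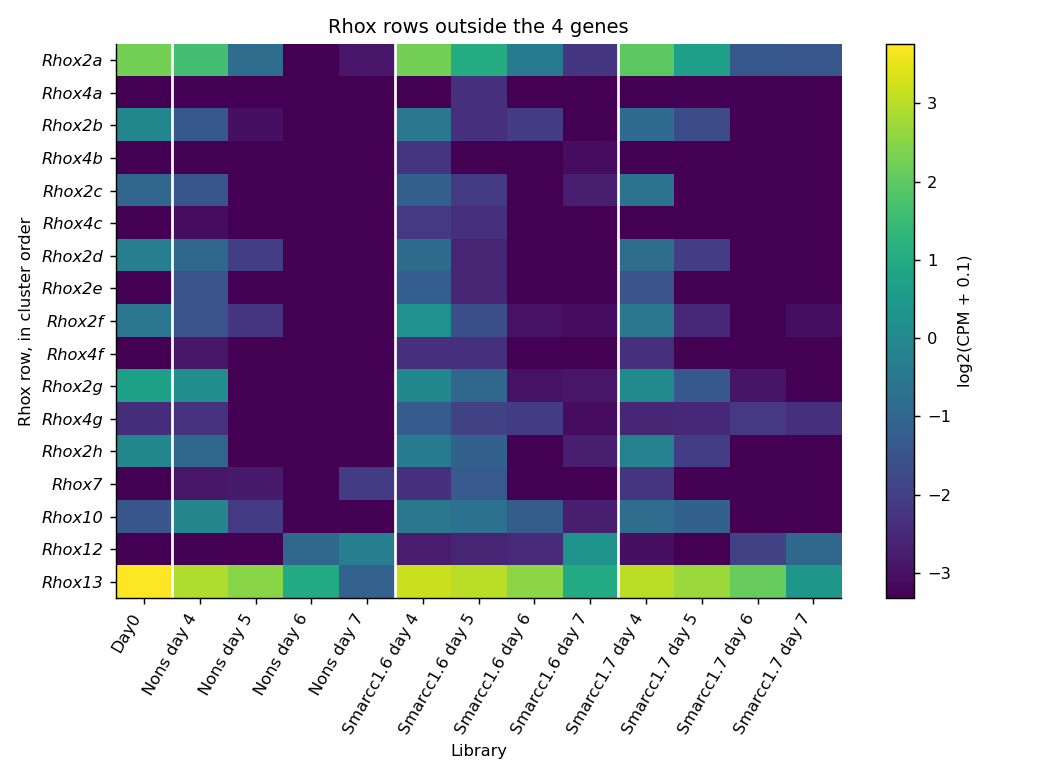
Level of the 17 Rhox rows outside the 4 genes that had at least 3 reads in some library (vertical axis, in cluster order), in each of the 13 libraries (horizontal axis, grouped as Day0, Nons, Smarcc1.6 and Smarcc1.7 with days in order). Colour is log2(CPM + 0.1). The Rhox2 copies and Rhox13 are lower (darker) on day 7 than on day 4 in each group, and Rhox12 is higher on day 7.

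Beyond the cluster, 1 of the 10 nearest tested genes, 5 on each side, was called higher in knockdown and 0 lower. Of all tested genes 6.88% were called higher and 4.77% lower. The neighbour called was Gm9, a predicted gene whose row ends 2.8 kb before the cluster. Its level went from 3.03 log2 CPM on day 4 to -0.31 on day 7 in Nons, from 3.46 to 0.72 in Smarcc1.6 and from 3.43 to 0.19 in Smarcc1.7, and it was higher in 8 of 8 same-day comparisons (0.93 ± 0.22, limma adjusted p = 0.0206). That call was lost without Nons on day 5 or on day 6 (limma adjusted p up to 0.0942). Upf3b, a factor of nonsense-mediated mRNA decay, Nkap, Ndufa1, which encodes a subunit of respiratory complex I, and Rnf113a1 on the same side, and Zbtb33 (Kaiso, which binds methylated DNA), Fam70a, whose row overlaps the end of Zbtb33, Lamp2, Cul4b and Mcts1 on the other, had differences between -0.07 and 0.30 and did not pass the threshold. In the interaction fit, however, Cul4b passed it, with a change of the difference of -0.21 per day (limma adjusted p = 0.028). On the whole X chromosome, 68 of 507 tested genes were called higher in knockdown, 13.4%.

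Outside the 4 members, the genes whose log2 CPM resembled each member most over the 13 libraries lay on autosomes. Rhox6 and Rhox9 correlated with each other with r = 0.982, above every gene named here for Rhox6. For Rhox1 they were Tuba3b, a testis tubulin (Pearson r = 0.996), Nhedc1 (0.989) and 2410076I21Rik (0.987). For Rhox5 they were Ggct, a gamma-glutamylcyclotransferase (0.991), Inpp5d, a lipid phosphatase (0.991), and again 2410076I21Rik (0.989). For Rhox6 they were Fbxl4, 1500011H22Rik and Cyba, a subunit of NADPH oxidase (each 0.979), and for Rhox9 Tmcc2 (0.984), the transporter gene Slco5a1 (0.979) and the kinase gene Akt1 (0.971). The libraries share their course of days, and a large part of all tested genes changed with it. Tuba3b was 7.05 log2 CPM in Day0 and in Nons 6.63, 4.50, 1.32 and -1.31 on days 4 to 7.

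Gene lists from the biology of the cluster, chosen with earlier results of these data known, were counted in the same fit. Every list count of knockdown calls from here on is to be read beside 6.88% of all tested genes called higher and 4.77% called lower. Among germline genes that are known to be silenced with promoter methylation, 21 of 23 tested were called higher in knockdown and 0 lower (limma), with a median difference of 1.24 beside -0.01 over all tested genes. Of these 23 genes, 20 fell and 1 rose with day. Hormad1, of the meiotic chromosome axis, was 7.39, 5.24, 0.70 and -1.43 log2 CPM in Nons on days 4 to 7, then 7.58, 6.80, 4.05 and 2.49 in Smarcc1.6 and 7.70, 6.65, 3.70 and 1.69 in Smarcc1.7, and it was higher by 2.11 ± 0.41 (limma adjusted p = 0.00892). Smc1b, a meiotic cohesin subunit (1.94 ± 0.34), and Piwil2, of the piRNA pathway (1.82 ± 0.28), were likewise higher in knockdown than in Nons (limma adjusted p = 0.00649 and 0.00396). Tuba3a and Tuba3b, tubulins so alike that reads may be split between them, were higher by 1.82 and 2.00 (limma adjusted p = 0.0102 and 0.0183). Leaving out Nons on day 6 ended both these calls and leaving out Nons on day 7 that of Tuba3b (limma adjusted p up to 0.0904), while Hormad1, Smc1b and Piwil2 passed in all 12 fits that left out 1 library. The count of 21 was 14 without the Nons library of day 6, 13 without day 5, 10 without day 6, 16 with voom and 0 without day as a factor, and all 23 differences were above 0 in each of these fits. With 1 hairpin alone it was 2 (Smarcc1.6) and 0 (Smarcc1.7).

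Of the naive pluripotency genes, 9 of 12 tested were called higher and 0 lower, with a median difference of 1.02, and 9 of the 12 fell with day. The genes not called were Nanog (0.74 ± 0.26), Tbx3 (-0.26 ± 0.39) and Klf5 (-0.37 ± 0.17), with limma adjusted p = 0.0859, 0.709 and 0.169. Prdm14 (1.62 ± 0.20), Klf4 (1.40 ± 0.29) and Zfp42 (1.11 ± 0.15), each a transcriptional regulator of the naive state, were among the 9 called higher (limma adjusted p = 0.00193, 0.0128 and 0.0025), as were Tcl1 (1.82 ± 0.28) and Nr0b1 (1.79 ± 0.53), the latter with the call lost in 11 of 12 fits that left out 1 library (limma adjusted p = 0.00372 and 0.0488). Klf4 lost its call without Nons on day 5 (limma adjusted p = 0.066). The count of 9 was 6 without day 6 and also without the Nons library of day 5, 5 without day 5, 8 with voom, 4 with Smarcc1.6 alone, and 0 with Smarcc1.7 alone or without day as a factor, and without day 4 or the Nons library of day 4 it was 8 higher and 1 lower. The summed level of the list on day 4 was 565 CPM in Nons, against 1610 with the hairpin Smarcc1.6 and 1230 with Smarcc1.7, and on day 7 these sums were 358, 386 and 378 CPM. This gap was widest on day 4 and narrow on day 7, whereas those of Rhox1, Rhox5 and Rhox13 were small or negative on day 4 and wide on day 7. In the interaction fit 1 of the 12 genes was called with a rising difference and 3 with a falling difference (limma), and the part of naive markers in the Rhox differences was not tested. Of the ESC identity markers 3 of 8 were higher, Zfp42, Dppa5a (1.03 ± 0.14, limma adjusted p = 0.00278) and Sox2 (0.69 ± 0.13, adjusted p = 0.00888). That count was 2 without day 6, 1 with Smarcc1.6 alone, and 0 with Smarcc1.7 alone or without day as a factor.

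Among enzymes that write or erase DNA methylation, 4 of 9 were called higher and 1 lower, with a median difference of 0.23. Dnmt3l, the cofactor of the de novo methyltransferases, was 10.24, 9.07, 7.19 and 5.21 log2 CPM in Nons on days 4 to 7, 10.06, 9.72, 8.68 and 7.25 in Smarcc1.6, and 10.05, 9.49, 8.40 and 7.20 in Smarcc1.7. Like Rhox5 it lay below Nons on day 4 and above it afterwards, with a difference of 0.93 ± 0.25 and a change with day of 0.74 ± 0.06 (limma adjusted p = 0.0345 and 0.000108). The methyltransferase Dnmt3a (0.69 ± 0.18) and the demethylases Tet2 (0.82 ± 0.20) and Tet1 (0.30 ± 0.06) were higher (limma adjusted p = 0.0344, 0.0233 and 0.0106), and the glycosylase Tdg was lower (-0.30 ± 0.09, adjusted p = 0.0483). Of 12 fits that left out 1 library, 8 ended the call of Dnmt3l, 8 that of Dnmt3a, 9 that of Tdg and 3 that of Tet2, each time including the fits without Nons on day 5 and without Nons on day 6, and 1 that of Tet1, without Nons on day 6 (limma adjusted p up to 0.16). Without day 6, 0 of the 9 were called by limma. For the maintenance enzymes Dnmt1 and Uhrf1 the differences were -0.10 ± 0.06 and 0.06 ± 0.07 (not past the threshold). Of 10 tested genes of H3K9 methylation, which the silencing enzyme Setdb1 and its cofactor Trim28 belong to, 0 were called by limma or voom and 2 had an unadjusted p under 0.05, with a median of -0.01 (Trim28 0.00 ± 0.06, Cbx5 0.00 ± 0.06). Of the non-canonical Polycomb complex PRC1.6, which silences germline genes, 2 of 13 were higher, L3mbtl2 (0.42 ± 0.09, limma adjusted p = 0.0136) and Rybp (0.24 ± 0.07, adjusted p = 0.0344), and 1 was lower, Tfdp1 (-0.26 ± 0.07, adjusted p = 0.043). Of 12 fits that left out 1 library, 1 ended the call of L3mbtl2 (without Nons on day 5), 8 that of Rybp and 10 that of Tfdp1 (limma adjusted p up to 0.166), and without day 6, 0 were called.

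**Figure D5:**
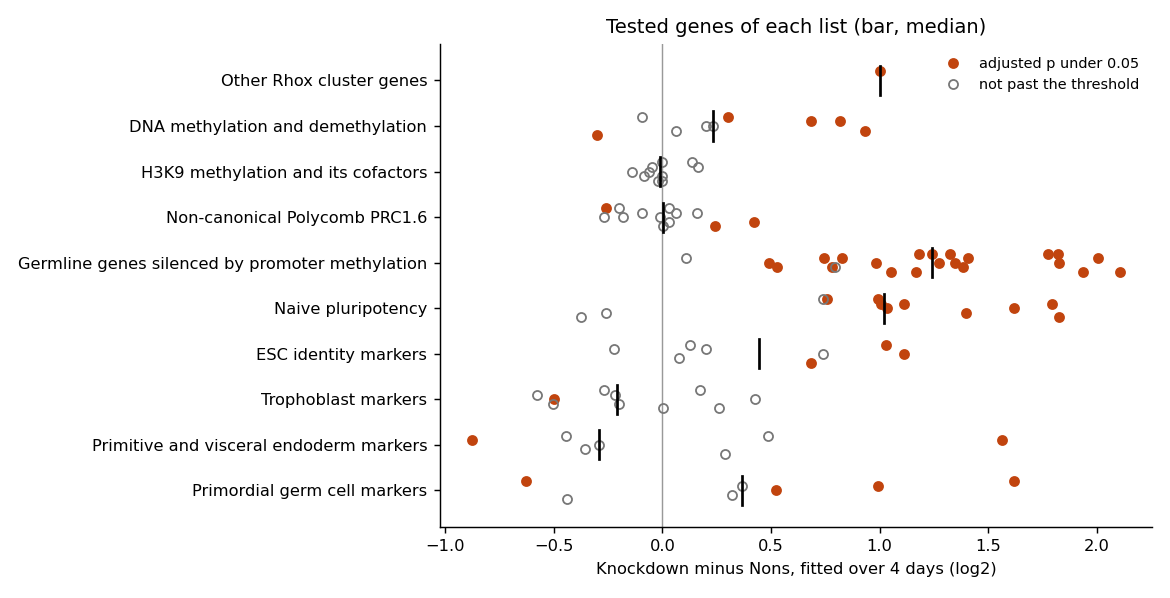
Fitted difference between knockdown and Nons in log2 (horizontal axis) for each tested gene of 10 lists (vertical axis). Filled points are past an adjusted p of 0.05 (limma), open points are not, and the black bar is the median of the list. Germline genes lie to the right of 0 with a median of 1.24, and the H3K9 methylation genes lie around 0.

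Trophoblast markers were counted because Rhox6 and Rhox9 are known from placenta. Over the 3 groups together, 7 of 10 tested were called rising with day, as Rhox6 and Rhox9 were, and 0 falling (limma). Over all tested genes 34.9% were called rising and 25.6% falling, and the rise of the markers was not tested within each group. Among the 3 that did not pass were Ascl2, a transcription factor of trophoblast progenitors, with a change per day of -0.46 ± 0.21 (limma adjusted p = 0.0843), and Gata3, with 0.04 ± 0.10 (adjusted p = 0.762). Their summed level went from 64.9 CPM on day 4 to 3740 on day 7 in Nons, from 91.4 to 3400 in Smarcc1.6 and from 73.4 to 2900 in Smarcc1.7, most of it from the keratins. On days 5 and 6 the sum was highest in Nons, as the levels of Rhox6 and Rhox9 were, and on day 4 it was lowest in Nons, as they were, but on day 7 it was highest in Nons, where they were lowest. Krt8 was 2.96 log2 CPM in Nons on day 4 and 11.07 on day 7, and in knockdown it was different by -0.50 ± 0.14 (limma adjusted p = 0.0375, up to 0.177 in the 8 of 12 fits without 1 library that ended the call). For Krt18 the knockdown difference was -0.27 ± 0.12 (limma adjusted p = 0.164). Of the markers of mature trophoblast, Prl3d1 had no reads in any library and Tpbpa had 1 read in all, so the keratin rise came without them, and its part in the rise of Rhox6 and Rhox9 was not tested. In the endoderm list 1 of 7 was higher, Cubn (1.56 ± 0.36, limma adjusted p = 0.0197), and 1 lower, Sox17 (-0.88 ± 0.24, adjusted p = 0.0369), with a summed level of 29.6 to 91.9 CPM in the hairpin groups. Of 12 fits that left out 1 library, 3 ended the call of Cubn (without Nons on day 5, 6 or 7) and 9 that of Sox17 (limma adjusted p up to 0.175). In the primordial germ cell list 3 of 7 were higher, Prdm14, Dppa3 (1.00 ± 0.17, limma adjusted p = 0.00624) and Ifitm3 (0.52 ± 0.11, adjusted p = 0.0149), and 1 lower, Dnd1 (-0.63 ± 0.15, adjusted p = 0.0199), with summed levels of 155 to 269 CPM in Nons, 209 to 327 in Smarcc1.6 and 211 to 295 in Smarcc1.7. Leaving out Nons on day 6 ended the call of Ifitm3, and leaving out Nons on day 5, 6 or 7 that of Dnd1 (limma adjusted p up to 0.084). The count of 3 was 1 without day 6, 2 without day 4 or the Nons library of day 6, 1 with Smarcc1.6 alone, and 0 with Smarcc1.7 alone or without day as a factor.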

How the data were processed

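RNA-seq was measured in 13 libraries (TruSeq, paired-end, NextSeq500), grouped by their titles. The authors trimmed reads with trim_galore, aligned them to mm10 with strain-specific positions masked (tophat or hisat2, and TopHat2 2.0.12 in the submitters' processing notes), counted them over genes in Seqmonk and deposited log2 CPM, that is log2 of counts scaled to mapped reads. The strand setting and annotation release are not given in the sources used here, so reads of overlapping genes may not be told apart. The steps of the deposited log2 values gave the reads and depth behind each value (100% of low values were whole reads, within 0.02 of a read). At these depths 3 reads was taken as the floor, and intervals of ratios are exact at 95%.

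Differences were taken within day. Linear models were fitted with limma 3.58.1 in R 4.3.3 (lmFit, eBayes with trend) to the 13406 genes that averaged 0 log2 CPM or more across the 12 hairpin libraries, with Benjamini-Hochberg adjustment and a threshold of 0.05. Knockdown and hairpin contrasts had day as a factor, the interaction was the product of knockdown and day beside day as a factor, and the change per day had group as a factor. Replicate numbers are days, which pair the samples by the labels: deviations from group means correlated between same-day libraries in all 12 pairs (r from 0.74 to 0.96). On simulated data with 200 of 13406 genes changed by 1.00 log2, 100% were recovered for knockdown and 99.5% for the hairpin contrast, and 92.0% and 80.0% at 0.50. The members and lists were chosen with earlier results of these data known. Named genes were the members, Smarcc1, other Rhox rows with at least 3 reads in a library and 5 tested genes on each side of the cluster. Further ones were the 3 genes outside the members most like each member, and up to 5 called genes per list by size (else the 2 highest).  Dnmt1, Uhrf1, Setdb1, Cbx3, Ascl2, Gata3, Prl3d1, Tpbpa, Pou5f1, Nanog, Tbx3 and Klf5 were named after their values were seen. Alternatives were another filter, another scaling, voom on the recovered reads, no trend, no day factor, 1 hairpin at a time, and leaving out each library or day. Allele-specific values and protein sequences were not used here. Python 3.11.15, pandas 2.3.3, numpy 2.4.6, scipy 1.17.1 and matplotlib 3.10.9 were used.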

Additional observations from a re-analysis of the deposited data

Results flagged for a closer look

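The difference of Smarcc1 from the same-day Nons library was -0.38 log2 with Smarcc1.7 on day 7, far from the other 3 days of that hairpin (between -1.14 and -1.08), so the depletion was least there. Of 30 groups of 4 libraries checked in this way 1 stood out, and chance would give about 1 in 20, that is 1.5.

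The difference of Rhox13 between knockdown and Nons changed with day, by 0.65 log2 per day (limma, adjusted p = 0.0346). It was below the threshold in 14 of 21 alternatives (limma adjusted p from 0.0248 to 0.231, and 0.231 without Nons on day 7), with a change per day from 0.56 to 0.84.

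For Rhox5, both hairpins lay below Nons on day 4 (mean -0.27 log2) and above it on days 5 to 7, where the means were 0.29, 1.45 and 1.36. For Rhox6, both lay below Nons on day 5 (-0.21) and day 6 (-0.50) and above it on days 4 and 7 (0.95 and 0.34). For Rhox9 the means were -0.18 on day 5 and -0.41 on day 6, beside 1.41 and 0.50 on days 4 and 7. These differences between days were not tested for these 3 genes.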

How the results depend on the processing

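The differences of Rhox1 and Rhox5 from same-day Nons kept their sign in 10 of 10 alternatives, from 0.98 to 2.50 and from 0.46 to 1.04. Those of Rhox6 and Rhox9 turned to -0.12 and -0.0283 without day 4 and kept their sign in the other 9. Between the hairpins no member passed the threshold in any fit (limma adjusted p at least 0.773), and 0 genes were called except 2 with no filter. Knockdown calls were 1561, and they were 57 with Smarcc1.6 alone, 0 with Smarcc1.7 alone (2363 at an unadjusted p under 0.05) and 4 with no replicate block (day left out of the model). They ran from 611 to 2003 on leaving out 1 library and from 287 (day 6) and 386 (day 5) to 1767 on leaving out a day. Interaction calls were 503, and 272 without the trend, 198 to 532 without 1 library and 167 (day 4) to 611 (day 7) without a day. The interaction of Rhox1 fell short of the threshold without day 4, and that of Rhox5 without day 4 or Nons on day 4, whereas those of Rhox6 and Rhox9 passed it, at -0.73 and -0.91 per day, without day 7 or Nons on day 7. The cause of these changes was not tested, though each such fit has fewer libraries. Depth limits Rhox1 in Nons on day 7, which is 3 reads, and the Rhox2 copies and Rhox10 after day 5.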
